A study of Mus musculus with 6 samples.

Results

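The genes described here encode the core of the cellular defence against reactive oxygen species: the regulators Nfe2l2 and Keap1, the superoxide and peroxide enzymes Sod1, Sod2, Cat and Prdx1, the glutathione genes Gclc and Gclm, the thioredoxin reductase gene Txnrd1, and Hmox1. They were taken as a fixed list of 10 genes among the 21992 protein-coding genes of the GENCODE M21 annotation of the mouse genome mm10. The rule that defines them uses no binding value, but the list was chosen with earlier results of these data known. For each gene, peaks were collected over its promoters, taken as the 2000 bp before each annotated transcript start and the 200 bp after it, and over the rest of the gene body. All 10 genes carried a CDK6 peak at a promoter in each of the 4 ChIP-seq libraries, those of the wildtype and those of the kinase-inactive protein.

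The libraries came from lymphoid pre/pro-B cell lines derived from Cdk6-/- mouse bone marrow and transformed by BCR-ABL(p185), so that all cells lacked endogenous CDK6. In one group the cells overexpressed HA-tagged wildtype CDK6 (CDK6-WT, n = 2), and in the other HA-tagged CDK6-K43M, a mutant without kinase activity (n = 2), in both cases from a retroviral pMSCV-IRES-GFP vector. Chromatin was pulled down with an antibody against the HA tag, so binding refers to an overexpressed, tagged protein, and the comparison asks whether binding needs the kinase function. The labels number the replicates 1 and 2 but do not say whether these were separate cell lines, and any p-value below measures the spread between these libraries only.

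NRF2, the product of Nfe2l2, is a transcription factor that is kept low by KEAP1, which hands it to a ubiquitin ligase, and that accumulates when oxidants modify KEAP1. In the nucleus it pairs with small MAF proteins and binds antioxidant response elements (AREs) at genes of glutathione synthesis, the thioredoxin system and haem breakdown. Superoxide dismutases turn superoxide into hydrogen peroxide, which catalase, peroxiredoxins and glutathione peroxidases remove. CDK6 has no DNA-binding domain of its own and reaches chromatin through other proteins.

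The lists held 34729 to 39797 peaks that covered 13.4 to 16.6 Mb. The lists contain no read totals, but the reads at each summit could be recovered from the fold enrichment and the −log10 p, and the genome-average pileup recovered in this way was 1.54 and 1.73 reads in the CDK6-WT libraries (replicate 1, then replicate 2) and 1.90 and 1.57 reads in those of CDK6-K43M. Peak strength is given below as a percentile, the rank of the −log10 q of a peak among all peaks of its own list, where 100 is the strongest. The libraries stood apart by replicate number more than by variant. Among all 7303 genes with a promoter peak in every list, the median percentile was 84.3 and 86.1 in the replicate 1 lists of CDK6-WT and CDK6-K43M. In their replicate 2 lists it was 63.4 and 62.8. Values are therefore given by replicate number throughout. The overlap of the variants and the permutation p-values use all 4 libraries without pairing, unless a replicate block is named. Where 2 values are given for a variant, the first is replicate 1.

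The sequences before the start sites of Nfe2l2, Prdx1, Gclm, Txnrd1 and Sod1 are shown because each holds the core letters of an ARE, TGACNNNGC, on either strand. They were taken from RefSeq promoters (GRCm38.p6, the assembly of mm10), run 5′ to 3′ on the strand of the gene, and stop before the first GENCODE exon of the gene. Capitals mark the ARE core.
Nfe2l2 (chr2:75704664-75704913, minus strand): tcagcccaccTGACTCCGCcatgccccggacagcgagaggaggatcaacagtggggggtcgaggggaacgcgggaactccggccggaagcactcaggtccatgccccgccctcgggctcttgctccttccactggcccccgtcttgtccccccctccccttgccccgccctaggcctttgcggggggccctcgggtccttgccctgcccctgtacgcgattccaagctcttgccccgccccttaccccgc
Prdx1 (chr4:116685349-116685543, plus strand): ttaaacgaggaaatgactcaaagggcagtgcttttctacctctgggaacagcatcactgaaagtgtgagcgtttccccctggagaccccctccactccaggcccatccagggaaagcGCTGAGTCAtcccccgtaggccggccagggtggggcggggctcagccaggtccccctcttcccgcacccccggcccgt
Gclm (chr3:122245307-122245556, plus strand): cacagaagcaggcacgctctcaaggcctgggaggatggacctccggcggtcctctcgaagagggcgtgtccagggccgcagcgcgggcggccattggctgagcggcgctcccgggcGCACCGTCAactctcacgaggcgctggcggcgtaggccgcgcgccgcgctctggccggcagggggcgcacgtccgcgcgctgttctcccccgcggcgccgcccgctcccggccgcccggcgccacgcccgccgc
Txnrd1 (chr10:82858956-82859178, plus strand): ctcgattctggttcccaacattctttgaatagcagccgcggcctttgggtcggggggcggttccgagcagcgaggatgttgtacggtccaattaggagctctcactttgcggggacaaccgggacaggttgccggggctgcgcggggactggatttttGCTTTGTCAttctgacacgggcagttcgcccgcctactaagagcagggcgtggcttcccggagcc
Sod1 (chr16:90220512-90220753, plus strand): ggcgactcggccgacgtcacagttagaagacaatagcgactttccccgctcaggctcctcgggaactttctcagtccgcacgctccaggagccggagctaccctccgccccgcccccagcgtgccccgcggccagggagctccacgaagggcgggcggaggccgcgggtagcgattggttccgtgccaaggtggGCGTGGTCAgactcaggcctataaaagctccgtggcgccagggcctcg
The core lay from -240 to -232 of the RefSeq start at Nfe2l2, from -134 to -126 at Gclm, from -133 to -125 at Prdx1, from -92 to -84 at Txnrd1 and from -56 to -48 at Sod1. At Prdx1 it overlapped the AP-1 letters TGACTCA, which are read there on the opposite strand. RefSeq promoters were matched for 8 of the 10 genes and not for Gclc and Hmox1, and the ARE core was present in the promoters of 5 genes, against 2481 of 16522 protein-coding genes with a RefSeq promoter and 13.1% of 20150 such promoters, each 250 bases before to 50 after the start. A match of letters is a description and not evidence of a bound factor.

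CDK6 was present at the promoters of the antioxidant genes in every library. All 10 genes had a promoter peak in CDK6-WT replicate 1, in CDK6-WT replicate 2 and in CDK6-K43M replicates 1 and 2, whereas 47.0%, 40.1%, 48.5% and 39.4% of all protein-coding genes had one in these lists. A promoter peak in all 4 lists was found at 10 of 10 genes, beside 33.2% of all protein-coding genes and 54.6% of 11513 genes with a CpG-rich promoter (observed to expected CpG of at least 0.6 around a start). Among the 10 genes, 7 had such a CpG-rich promoter, and Nfe2l2, Cat and Hmox1 lay below that value with 0.594, 0.549 and 0.542. As all 10 genes were bound in every list, none could have promoter peaks of one variant alone. That pattern was found at 0.0818% of all genes in favour of CDK6-WT and at 0.241% in favour of CDK6-K43M. With 10 bound promoters in each library the count is at its maximum and cannot show a difference between the variants. Under stricter thresholds it was 10 and 7 with CDK6-WT, and 10 and 9 with CDK6-K43M, for a −log10 q of at least 5, and 10 and 5 against 10 and 4 for at least 10. In this design of 2 libraries against 2, no p below 0.33 is possible in the exact two-sided permutation test.

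In strength, these peaks ranked near the middle of all bound genes. The median over the 10 genes of the mean percentile was 70.8, beside 71.5 over the 7303 bound genes. By library the medians were 79.1 and 63.1 in replicates 1 and 2 of CDK6-WT, and 76.6 and 68.5 in those of CDK6-K43M. With stricter thresholds, 6 of 10 genes had a promoter peak in all 4 lists at a minimum −log10 q of 5, beside 23.5% of all genes, and 3 of 10 at a minimum of 10, beside 8.43%. The 3 genes were Cat, Prdx1 and Txnrd1.

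**Figure D1:**
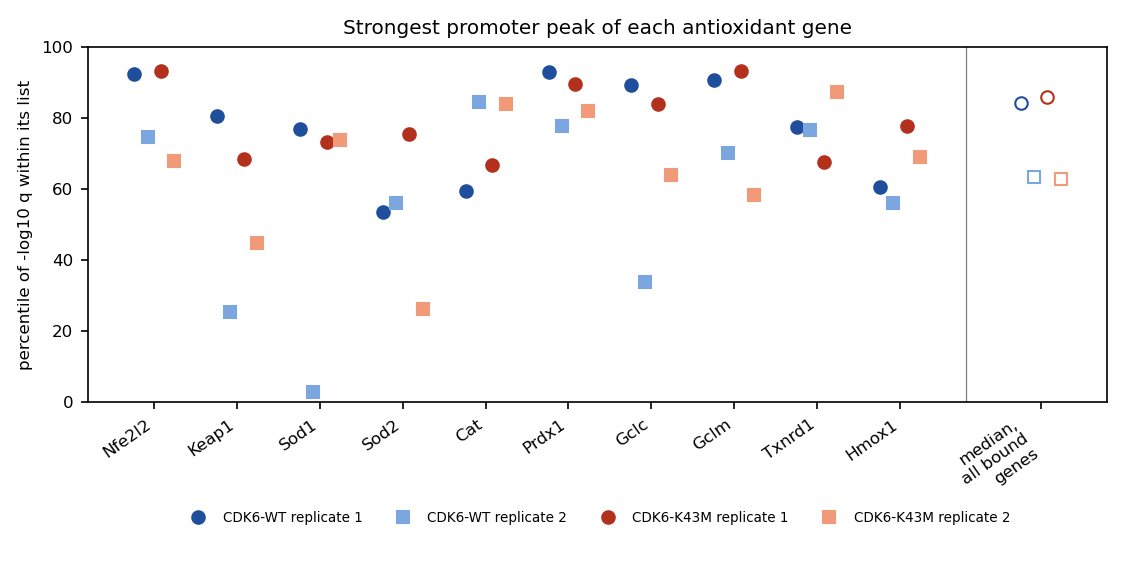
Percentile of the strongest promoter peak of each gene (y axis, rank of −log10 q within its own list, 0 to 100) in the 4 libraries, with open symbols on the right for the median over all 7303 genes bound in every list. Circles are replicate 1 and squares replicate 2. Most genes show the circles above the squares, as the open symbols do, and Sod1 in CDK6-WT replicate 2 is the lowest point at 3.06.

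Nfe2l2, the gene of NRF2, ranked second among the 10 genes with a mean percentile of 82.1. The strongest peak at its promoter had a percentile of 92.5 in replicate 1 and 74.7 in replicate 2 of CDK6-WT, and of 93.2 and 68.0 in those of CDK6-K43M. Both replicate 1 libraries were high and both replicate 2 libraries lower, and the variants overlapped. The summits lay 34, 71, 62 and 44 bp downstream of the annotated start in the same order, within 37 bp of each other, over the first exon. In replicate 1 this was a broad peak of 2100 bp (CDK6-WT) and 2149 bp (CDK6-K43M) with 38 and 47 reads at the summit, which in replicate 2 was broken into shorter peaks with 23 and 18 reads. The merged region (chromosome 2, 75703299 to 75705464) also covers the start of E030042O20Rik, a noncoding transcript on the opposite strand that begins 163 to 200 bp from the summits, so the peak cannot be given to one of the transcripts.

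Keap1, which encodes the repressor of NRF2, was among the weaker genes with a mean percentile of 54.9. Its strongest promoter peak had the percentiles 80.7 and 25.5 with CDK6-WT, and 68.5 and 44.9 with CDK6-K43M. Again both replicate 1 values exceeded both replicate 2 values, with CDK6-WT spanning both extremes. The recovered summit reads were 28 and 12 with CDK6-WT, and 26 and 13 with CDK6-K43M. The strongest summits lay at 21238832 and 21238838 on chromosome 9 in the replicate 1 lists of CDK6-WT and CDK6-K43M and at 21239182 and 21239189 in their replicate 2 lists, a span of 357 bp. Both replicate 2 lists also held a weaker peak near the replicate 1 position, with summits at 21238755 and 21238872, so the lists differed in which peak was the strongest. Of 3 promoter regions at Keap1, 2 were in all 4 lists. One of these, on chromosome 9 from 21241342 to 21241705, is in the promoter window only by the edge of the CDK6-WT replicate 1 peak.

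Sod1, the gene of cytosolic superoxide dismutase, had the widest spread of the genes. Its peak reached the percentiles 77.0 and 3.06 in replicates 1 and 2 of CDK6-WT, and 73.3 and 73.9 in those of CDK6-K43M. The CDK6-WT replicate 2 library stood alone at the bottom and the other 3 were close to each other. The fold enrichment over local background was 10.5 and 3.47 with CDK6-WT, and 9.65 and 7.04 with CDK6-K43M, from 26, 14, 29 and 20 reads. The local background was 1.54 and 3.26 reads with CDK6-WT, and 1.90 and 1.98 with CDK6-K43M. As summit reads over the genome average, Sod1 had 16.9 and 8.08 with CDK6-WT, and 15.2 and 12.8 with CDK6-K43M. The exact Poisson intervals cover the counting error of the summit reads only, and not the local background. They were 7.65 to 23.5 in CDK6-WT replicate 2 and 12.2 to 30.9 in CDK6-K43M replicate 2, and these overlap. The mean difference of 33.6 percentile points in favour of CDK6-K43M came with a difference of -3.62 in replicate 1 and 70.8 in replicate 2 (exact two-sided permutation p = 1.0). Summits lay between -184 and -11 bp from the start in the 4 lists, where negative values are upstream.

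Sod2, which encodes the mitochondrial dismutase, had the lowest mean percentile of the 10 genes, 52.9. The values were 53.5 and 56.1 with CDK6-WT, and 75.6 and 26.4 with CDK6-K43M. The CDK6-K43M libraries were the highest and the lowest, and both CDK6-WT libraries fell between them. In CDK6-WT replicate 1 the strongest peak was not at the main start but in an intron, 2236 bp downstream of the protein-coding start and at -287 bp from the start of another annotated transcript. That site (chromosome 17, 13010006 to 13010225) was seen in the replicate 1 libraries of both variants and in no replicate 2 library, while the region over the main start (13007647 to 13008404) was in all 4 lists.

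Cat, the gene of the peroxide-degrading enzyme catalase, was the gene at which the replicate 2 libraries were the higher ones. It had the percentiles 59.4 and 84.6 with CDK6-WT, and 66.7 and 84.0 with CDK6-K43M. Both replicate 2 values lay above both replicate 1 values, with means of 84.3 and 63.1. This order was found at 10.1% of the bound genes, whereas the opposite order was found at 69.3%. Of the 10 genes, 5 (Nfe2l2, Keap1, Prdx1, Gclc and Gclm) followed the common order and 1, Cat, the rarer one. Expressed as summit reads over the genome average of the library, Cat also had the higher values in replicate 2, 18.5 and 15.3, than in replicate 1, 14.3 and 14.2, where CDK6-WT is given first. What the replicate number marks is not stated in the labels, and its part in these values was not tested.

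Prdx1, the gene of a peroxiredoxin that reduces hydrogen peroxide through thioredoxin, was the most strongly bound of the genes with a mean percentile of 85.6, above 83.8% of the bound genes. Prdx1 peaks ranked at 92.9 and 77.8 with CDK6-WT, and 89.7 and 82.0 with CDK6-K43M. All libraries ranked it high, and the variants overlapped with a difference of 0.456 percentile points. It was also the 1 gene that still had a promoter peak in every list when each was reduced to its top 10000 peaks, beside 5.98% of all genes. A single region of 843 bp (chromosome 4, 116685324 to 116686166) held all the peaks. In CDK6-WT replicate 1 the summit lay 61 bp downstream of the centre of the ARE and AP-1 letters shown above, and in the other lists it was farther downstream, over 100 bp away.

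Gclc and Gclm encode the catalytic and the modifier subunit of glutamate-cysteine ligase, the first step of glutathione synthesis. Gclm had the percentiles 90.6 and 70.2 with CDK6-WT, and 93.2 and 58.4 with CDK6-K43M, and Gclc had 89.4 and 34.0 with CDK6-WT, and 83.9 and 64.0 with CDK6-K43M. At both genes the replicate 1 libraries were above the replicate 2 libraries and the variants overlapped. Gclm summits were at -174 and -8 bp from the start in CDK6-WT replicates 1 and 2, and at -121 and -85 bp in those of CDK6-K43M, around the ARE core in its promoter, which was within 100 bp of the summit in 3 of the 4 lists. At Gclc the summits were 49 to 71 bp downstream of the start in 3 lists. In CDK6-WT replicate 2, however, the summit lay 790 bp downstream in an intron, although the peak still reached the start, and Gclc lost its promoter peak in that list when the summit had to fall inside the window.

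Txnrd1, the gene of the cytosolic thioredoxin reductase, was bound at its downstream starts. Txnrd1 had the percentiles 77.6 and 76.7 with CDK6-WT, and 67.7 and 87.5 with CDK6-K43M, but the strongest peak was not in the same region in every list. The gene has 8 annotated transcript starts over 63762 bp, and the most upstream one, at 82833951 on chromosome 10, had no peak in any list. Instead, 3 regions lay deep inside the gene (82858614 to 82859425, 82859639 to 82859950 and 82860118 to 82861364), of which the first and the last were in all 4 lists. The strongest peak was in the first region in CDK6-WT replicate 1, at -35 bp from a start that lies beside the oppositely oriented noncoding gene Gm38560, and in the last region in the other 3 lists. Region by region, which was examined after the values were seen, the first had 77.6 and 71.4 with CDK6-WT, and 63.4 and 70.5 with CDK6-K43M, so that both CDK6-WT libraries were higher, a difference that was not tested. The last region had 58.3 and 76.7 with CDK6-WT, and 67.7 and 87.5 with CDK6-K43M, and there the variants overlapped.

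Hmox1, which encodes the haem-degrading enzyme haem oxygenase 1, was the gene at which the variants did not overlap. Hmox1 ranked at 60.6 and 56.1 in the CDK6-WT lists (replicate 1, then 2) and at 77.7 and 68.9 in the CDK6-K43M lists. Both CDK6-K43M libraries were higher, at a mean of 73.3 ± 6.17 (SD, n = 2) against 58.3 ± 3.21 (SD, n = 2). The difference of 14.9 percentile points was 17.0 within replicate 1 and 12.8 within replicate 2, and leaving out 1 library gave 10.6 to 19.3. It gave p = 0.33 in the exact permutation test (two-sided), which is the lowest value this design allows, and a Benjamini-Hochberg adjusted p of 1.0 over all 7303 bound genes, and so did not pass a threshold. Of all bound genes, 6.78% were higher in both CDK6-K43M lists and 3.61% higher in both CDK6-WT lists, so 1 and 0 of the 10 genes is near the background. As summit reads over the genome average, Hmox1 had 13.0 and 9.82 with CDK6-WT, and 16.3 and 10.8 with CDK6-K43M, which overlap, from 20, 17, 31 and 17 reads. The summit position was the most constant of the 10 genes, from -39 to -26 bp from the start, a span of 13 bp. In the strongest promoter peak of the other 9 genes the variants overlapped, with exact two-sided permutation p = 1.0 for each.

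**Figure D2:**
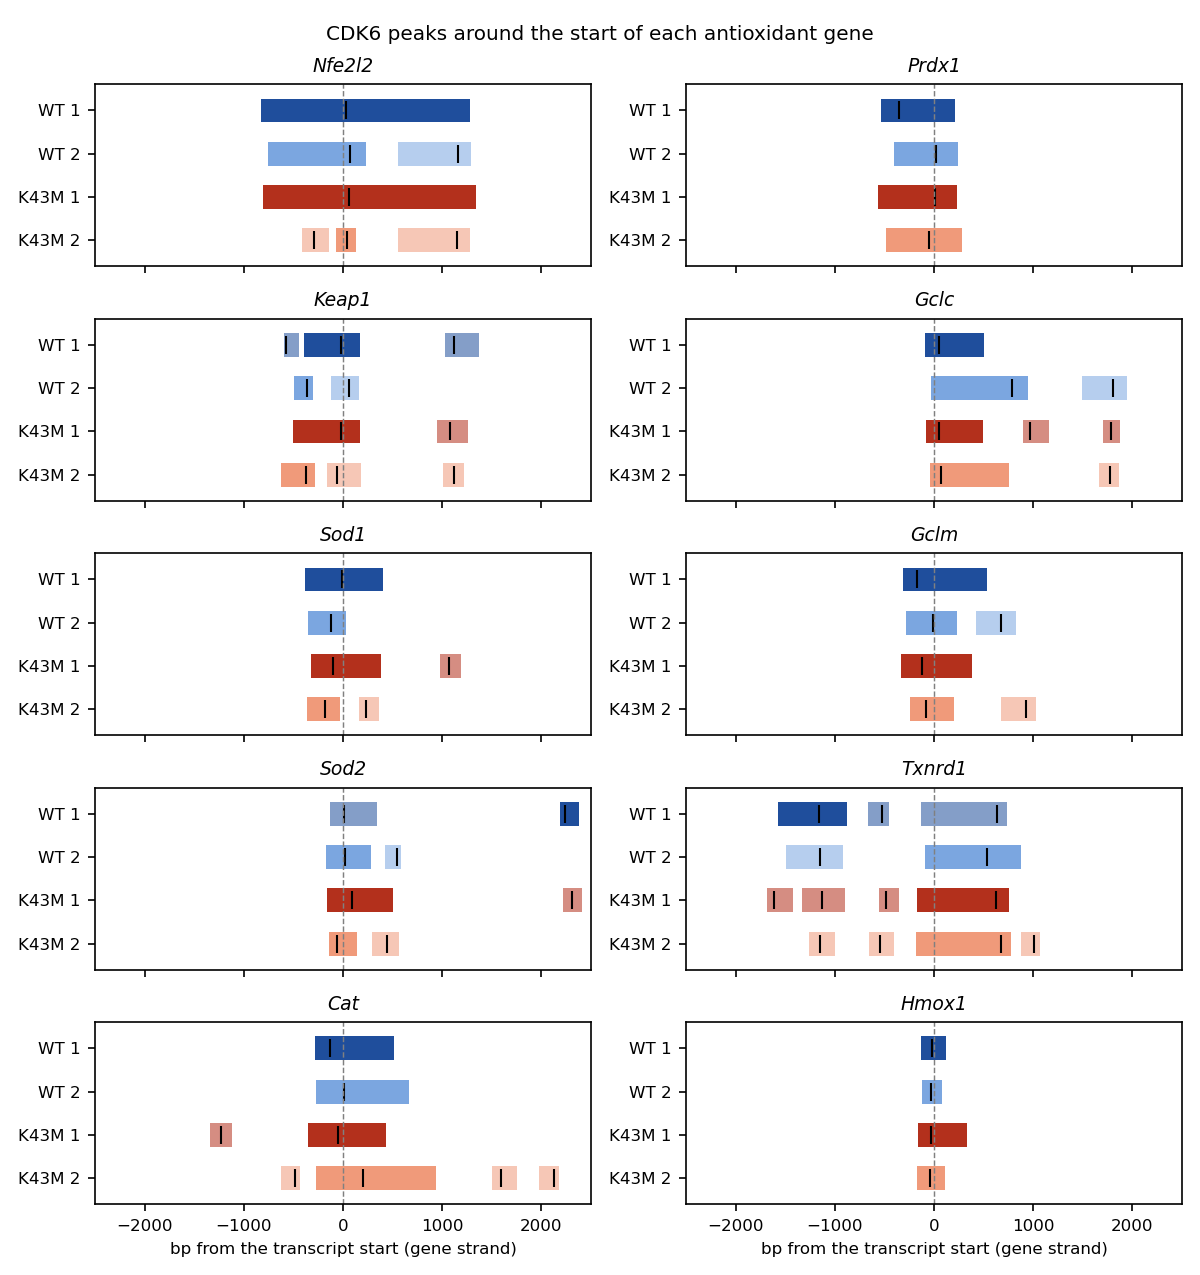
Peaks around the start of each gene in the 4 libraries (rows), with the distance from the protein-coding transcript start nearest to the summits on the x axis in bp along the gene. Bars are peaks, full colour marks the strongest promoter peak of the list, and black ticks are summits. Hmox1 summits align within 13 bp, while Txnrd1 and Sod2 show several separate peaks.

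Over the 40 strongest promoter peaks, 10 per list, the median distance of the summit from the nearest transcript start was 49.5 bp and 35 lay within 250 bp of it. The range was from -287 bp (Sod2, CDK6-WT replicate 1) to 790 bp (Gclc, CDK6-WT replicate 2). The 10 genes had 17 promoter regions after merging the lists. Peaks from 3 or 4 lists made up 14 of them, which the study counts as bound by both variants, and the remaining 3 came from 1 or 2 lists. The shares of these classes over the promoter regions of all genes were not computed, so the region counts have no background beside them. Of all genes, 41.3% had a promoter peak in at least 3 lists and 5.68% had one in the replicate 1 lists alone. For the 10 genes both outcomes were fixed by their promoter peaks in all 4 lists.

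The letters of transcription factor motifs were then counted within 100 bp of the strongest summit of each gene, on both strands. The ARE core (TGACNNNGC) was present at 5 of 10 genes, Keap1, Sod1, Sod2, Prdx1 and Gclm, beside 11.2% of 7301 bound genes on assembled chromosomes. SP1 letters (GGGCGG) were present at 8, beside 54.3%, and NFY letters (CCAAT) at Sod1, Sod2, Cat and Gclm, beside 23.2%. AP-1 letters (TGACTCA) occurred at Prdx1, beside 2.23%. The letters of NRF-1 (CGCATGCG), ETS (CCGGAAG) and RUNX (TGTGGT) occurred at 0 of the 10 summits, beside 4.29%, 20.0% and 9.77% of the bound genes. These counts rest on which list gave the strongest summit, since over the separate lists the core was near the summit in 3 lists at Gclm and Sod1, in 2 at Keap1 and Sod2, and in 1 at Prdx1 and Txnrd1. In the same way ETS letters were near the summit in 2 lists at Keap1, and RUNX and AP-1 letters in 1 list each at Sod2. ETS letters also lay in the RefSeq promoter of Nfe2l2.

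Beyond the promoters, Nfe2l2 was the gene with the strongest binding inside the gene body. A gene-body site in all 4 lists outside the promoter windows was found at 2 of 10 genes, Nfe2l2 and Gclc, beside 13.1% of all protein-coding genes and 11.0% of the 13256 genes whose length lay in the range of the 10 genes, 5576 to 63762 bp. Nfe2l2 had 2 such sites in introns. The first, with summits 15036 to 15123 bp downstream of the start (chromosome 2, 75689234 to 75690101), had the percentiles 86.5 and 91.0 with CDK6-WT, and 90.8 and 89.7 with CDK6-K43M. The second, 21521 to 21598 bp downstream (75682809 to 75683609), had 83.5 and 93.8 with CDK6-WT, and 83.8 and 95.9 with CDK6-K43M. In the replicate 2 libraries both sites ranked above the promoter of the gene, whereas in the replicate 1 libraries the promoter ranked above both. Their mean percentiles of 89.5 and 89.3 exceeded those of 92.1% and 91.8% of the 8150 regions that were in all 4 lists and touched no promoter window. Another site between them (75685419 to 75685704) was absent from CDK6-WT replicate 2 and had the percentiles 2.41, 16.9 and 71.7 in CDK6-WT replicate 1 and CDK6-K43M replicates 1 and 2.

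The 2 intronic sites in all 4 lists are shown as 100 bases to either side of the strongest summit. The sequences are on the minus strand of mm10, which is that of the gene. Capitals mark the RUNX letters TGTGGT, which each of these 2 sites holds. The site between them, which is not shown, had 0 RUNX matches and 1 AP-1 match in such a window. RUNX letters were present at 29.8% of the 8150 regions outside promoters in windows of this length, and AP-1 letters at 7.98%.
Nfe2l2 intronic site 1 (chr2:75689492-75689692, minus strand): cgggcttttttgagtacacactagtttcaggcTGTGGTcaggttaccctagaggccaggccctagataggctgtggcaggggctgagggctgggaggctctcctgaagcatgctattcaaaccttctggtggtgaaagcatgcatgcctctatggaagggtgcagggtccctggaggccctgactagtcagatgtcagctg
Nfe2l2 intronic site 2 (chr2:75682957-75683157, minus strand): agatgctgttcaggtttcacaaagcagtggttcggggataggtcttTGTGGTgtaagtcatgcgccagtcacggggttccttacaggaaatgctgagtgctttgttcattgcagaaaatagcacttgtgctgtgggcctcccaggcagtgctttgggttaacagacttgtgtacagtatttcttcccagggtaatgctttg
Neither window held the ARE core, which occurred at 10.3% of such regions.

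Gclc carried 1 intronic site in all 4 lists, 28609 to 28891 bp downstream of the start (chromosome 9, 77782792 to 77783508), with the percentiles 45.9 and 47.3 with CDK6-WT, and 53.4 and 33.6 with CDK6-K43M, and it ranked above 17.3% of the regions outside promoters. All 4 libraries placed it near the middle of their lists or below. Cat held the 1 region at these genes that was unique to a variant, an intronic site (chromosome 2, 103461760 to 103462093) in both CDK6-WT lists at the percentiles 46.1 and 42.4 and in neither CDK6-K43M list. Of 13 gene-body regions over the 10 genes, 5 were found in 3 or 4 lists and 7 were in 1 or 2 lists without a variant pattern. The shares of these classes over the gene-body regions of all genes were not computed, so these counts have no background beside them. Keap1, Sod2, Prdx1, Gclm and Hmox1 had no peak in the gene body outside their promoter windows.

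**Figure D3:**
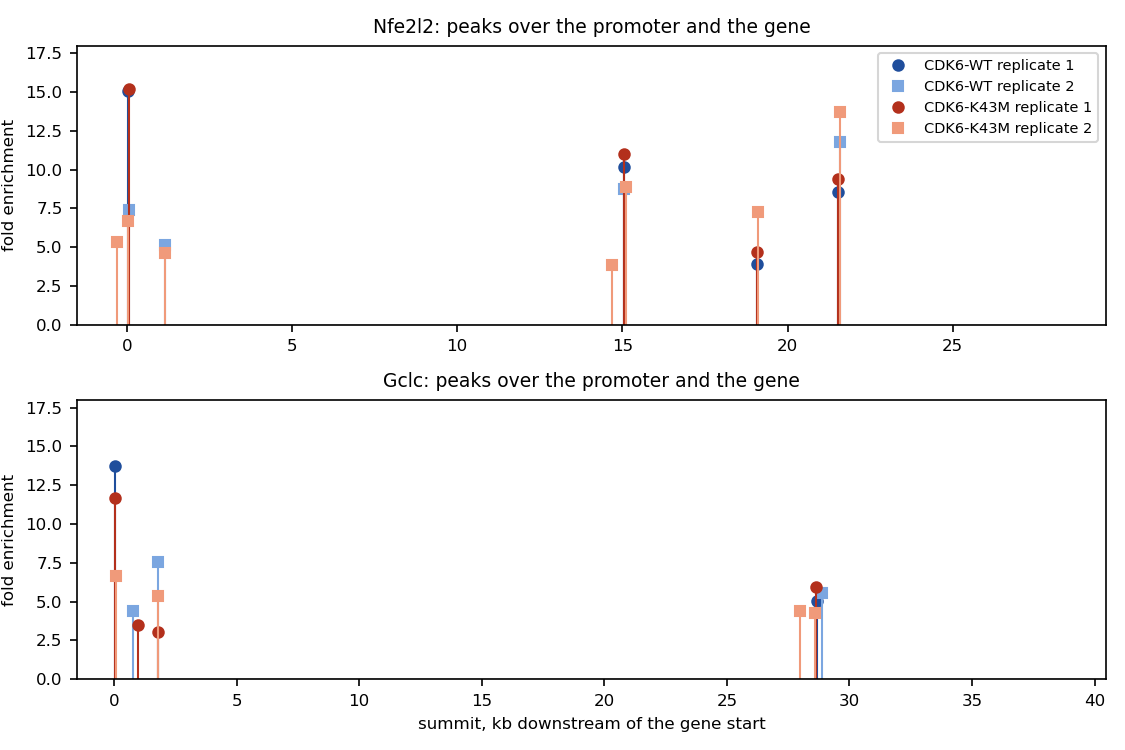
Fold enrichment over local background (y axis) of every peak over the promoter and gene body of Nfe2l2 and Gclc against the distance of its summit from the gene start in kb. At Nfe2l2 the intronic sites in the 4 lists reach 8.54 to 13.7 in the 4 libraries, and at Gclc the intronic site far downstream reaches 4.28 to 5.93.

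To see whether other genes of the same pathway were bound, a wider list of 88 genes in 9 roles was examined, 78 of them beside the genes above. A promoter peak in all 4 lists was found at 36 of these 78 genes (46.2%), beside 33.2% of all protein-coding genes. Among genes with a CpG-rich promoter the share was 54.6%, and how many of the 78 have such a promoter was not counted. Peaks in at least 3 lists were found at 50, beside 41.3% of all genes, and in no list at 15, beside 48.2%. By library, 60 and 46 of the 78 genes had a promoter peak with CDK6-WT, and 61 and 43 with CDK6-K43M, so that, as over all genes, fewer were found in the replicate 2 libraries. The thioredoxin system had a peak in all lists at 5 of 6 further genes and the stress sensing and repair genes at 7 of 10. Glutathione-using enzymes had one at 9 of 21, NADPH and quinone genes at 4 of 10, NRF2 control genes at 4 of 11, glutathione synthesis and haem and iron genes at 3 of 6 each, peroxiredoxins at 1 of 6, and superoxide and peroxide removal at 0 of 2.

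The strongest promoters of the wider list were those of Slc3a2, the heavy chain of amino acid transporters that include the cystine importer, with a mean percentile of 93.8, of the thioredoxin-like gene Txnl1 with 93.8, and of the stress-induced sestrin gene Sesn1 with 89.3. All 3 exceeded Prdx1. The genes without a promoter peak in any list included Nqo1, Srxn1 and Slc7a11, which are known NRF2 targets like Gclm and Txnrd1 but encode a quinone reductase, sulfiredoxin and the light chain of the cystine importer. The others were the glutathione peroxidase genes Gpx2, Gpx3, Gpx7 and Gpx8, the glutathione transferase genes Gsta4, Gstk1 and Gstm5, the extracellular dismutase gene Sod3, the mitochondrial isocitrate dehydrogenase gene Idh2, the methionine sulfoxide reductase gene Msrb2, the iron exporter gene Slc40a1, and Aifm2. One promoter of the wider list, that of the peroxiredoxin gene Prdx2, had a called peak in both CDK6-WT lists and in neither CDK6-K43M list. Its percentiles were 38.7 and 12.0, and the difference between the variants was not tested. This pattern was found at 18 of 21992 protein-coding genes (0.0818%). The peak lists do not measure transcription, and whether these genes were expressed in the cells was not analysed here.

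**Figure D4:**
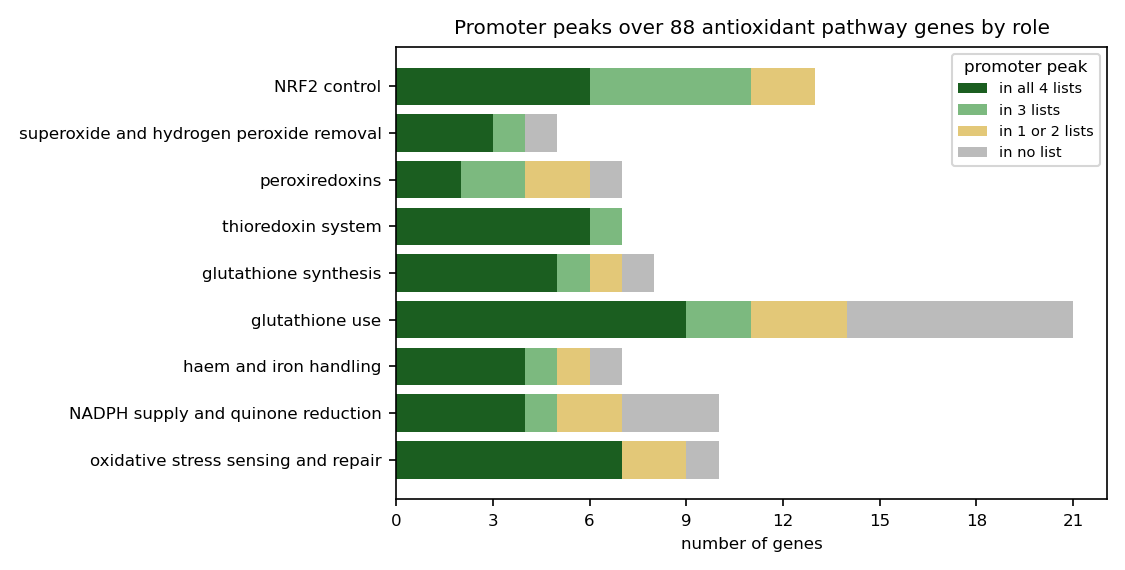
Number of genes (x axis) in each of 9 roles of the wider antioxidant list of 88 genes, the 10 genes above included, coloured by the number of lists with a promoter peak. Of the 7 thioredoxin system genes 6 have a peak in all 4 lists, whereas 7 of the 21 glutathione-using genes have none.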

How the data were processed

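ChIP-seq against the HA tag was analysed from 1 peak list per library, for 2 CDK6-WT and 2 CDK6-K43M libraries grouped by their titles; the 2 Input libraries were not analysed here. The submitters' processing notes name FastQC 0.11.5, Trimmomatic 0.36, BWA 0.7.15, bedtools, SAMtools 1.3.1 and MACS2 2.1.0 with mm10. The authors called peaks for each library separately. The deposited lists give the ratio of signal to local background at the summit (fold enrichment), its p-value and q-value as −log10, a score, and another value, the offset of the summit.

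The genes and lists were chosen with earlier results of these data known. Peaks overlapping a promoter or gene by at least 1 bp were collected, and the strongest by −log10 q represented the gene in a list. GENCODE M21 was used, whereas the authors used M13, both on mm10. Peaks overlapping by 1 bp were merged into regions over the lists. Reads at summits were solved from fold enrichment and −log10 p as whole numbers, with a scale factor estimated for each list. For 100% of peaks the −log10 p computed back from these reads was within 0.001 of the listed one. The scripts were tested on simulated data. Variants were compared by exact two-sided permutation tests over 6 assignments; adjusted p-values were taken over all bound genes rather than over the listed genes as first planned. Motif letters were searched in the genome, and promoter sequences came from RefSeq (GRCm38.p6). Of the wider list, genes were named that had no promoter peak or that had the 3 highest mean percentiles. Genes with a promoter peak in both lists of one variant and in neither of the other were also named. Alternatives were other peak thresholds, promoter windows, overlap rules, transcript starts and motif windows, a replicate block, leaving out each library and, chosen after the data were seen, summit reads over the genome average. Python 3.11.15, numpy 2.4.6, pandas 2.3.3, scipy 1.17.1, pysam 0.24.0, samtools 1.23.1 and matplotlib 3.10.9 were used.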

Additional observations from a re-analysis of the deposited data

How the results depend on the processing

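Across 23 results, 148 alternative values were computed, of which 21 changed sign. Antioxidant promoters with a peak in all 4 lists numbered 6 at a minimum −log10 q of 5, 3 at 10 and 1 with the top 10000 peaks per list, and those of the other 78 pathway genes 23, 7 and 5, since fewer peaks enter. The shares of all protein-coding genes under these settings were 23.5%, 8.43% and 5.98%. With 23 of 78 genes the wider list still lay above its background, but with 7 and with 5 it lay close to it. Its lead in the main setting, 46.2% beside 33.2%, was thus hardly present there. The median of the mean percentile over the 10 genes fell to 59.8 at the −log10 q minimum of 10, to 42.7 with the top 10000 peaks and to 61.3 when 0.5 of the peak had to lie in the window. A list in which a gene had no promoter peak under a setting entered the mean of that gene as the percentile 0. In the replicate 2 lists, 5 genes (CDK6-WT) and 4 genes (CDK6-K43M) kept a promoter peak at the −log10 q minimum of 10. These medians thus hold such zeros and are not the rank of the remaining peaks alone. The part of the zeros in each fall was not tested. Genes with a gene-body site in all 4 lists numbered 1 at a minimum −log10 q of 10. With motif windows of 50 bp, AP-1 was found at 0, SP1 at 5 and NFY at 2 of the 10 genes, and with 200 bp RUNX was found at 1. When 1 library was left out, a peak was needed only in the remaining lists, so these counts could not fall. The count of 10 promoters was thus fixed and says nothing about robustness. Genes with gene-body sites stayed at 2 and the pathway count was 36 to 44. The median percentile was 67.7 to 76.1.

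The variant difference in percentile changed sign with 1 library left out at every gene but Hmox1, with ranges of -15.6 to 9.63 for Nfe2l2, -24.0 to 31.2 for Keap1, -3.34 to 70.6 for Sod1, -28.4 to 20.8 for Sod2, -9.24 to 16.0 for Cat, -7.07 to 7.99 for Prdx1, -15.4 to 39.96 for Gclc, -22.0 to 12.8 for Gclm and -9.48 to 10.3 for Txnrd1. On the scale of summit reads over the genome average it changed sign for Keap1 (-1.56), Sod2 (0.324), Cat (-1.62), Prdx1 (-2.46), Gclc (-1.98) and Txnrd1 (-0.480). The cause was not tested. With a replicate block, pairing libraries by number, the difference in bound promoters was 0, as the count is at its maximum in each library, and that of Hmox1 was 14.9 (exact permutation p = 0.5, the smallest possible), and no call changed. Deviations of same-numbered libraries correlated at 0.572 across 7303 genes, which are not replicates, but the labels do not say what the number marks. Summit reads of 11 to 49 limit the precision of each peak.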

Other observations

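Some peaks lay upstream of the promoter windows, within 15000 bp of a gene end. The strongest was 3492 bp upstream of Gclc (chromosome 9, 77750402 to 77751684), outside any annotated gene or promoter window. It was in all 4 lists at the percentiles 98.7 and 96.9 in replicates 1 and 2 of CDK6-WT and 95.1 and 94.5 in those of CDK6-K43M. In each list it ranked above the Gclc promoter itself, and its mean percentile exceeded that of 99.0% of the 8150 regions outside promoters that were in all 4 lists. Within 100 bp of its strongest summit were 1 ARE core, 1 AP-1, 1 SP1 and 1 RUNX match. In the same order, such letters were present at 10.3%, 7.98%, 7.14% and 29.8% of these 8150 regions. The observed to expected CpG of the window was 1.12, and the median at the promoter summits of bound genes was 0.864. At those promoter summits the letters were present at 11.2%, 2.23%, 54.3% and 9.77%, in the same order.

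Hmox1 had a weaker upstream site 3867 bp from its start (chromosome 8, 75089636 to 75089872), with 2 ARE cores and 1 AP-1 match near the summit. It was seen in CDK6-WT replicate 2 at the percentile 36.3 and in CDK6-K43M replicate 1 at 26.2, and in neither of the others. Cat had a site 11149 bp upstream (chromosome 2, 103495632 to 103496987) in all 4 lists, at 57.2 and 86.1 with CDK6-WT, and 49.9 and 90.9 with CDK6-K43M, so the replicate 2 libraries were the higher ones there as at the Cat promoter. The region 14487 bp upstream of Sod2 lies at the promoter of the neighbouring gene Wtap and had a mean percentile of 87.6.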
